A study of Mus musculus with 6 samples.

Results

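The cytosolic ribosomal proteins were followed on 6 arrays of day 6 mouse embryoid bodies, the balls of cells that form when embryonic stem cells are left to differentiate in suspension. Members were all probe sets annotated to 1 gene whose symbol is Rpl or Rps followed by a digit, or Rplp0, Rplp1, Rplp2 or Rpsa, without the S6 kinases and pseudogenes. This gave 106 of the 45037 probe sets on the array, for 50 genes: 22 of the large subunit, 21 of the small subunit, 6 paralogs (Rpl3l, Rpl7l1, Rpl22l1, Rpl39l, Rps4l and Rps27l) and Rps19bp1, which encodes a protein that binds Rps19 and is no ribosomal protein itself. Another 110 probe sets name a ribosomal protein gene together with a further gene and were left out, so that Rplp1, Rpl3, Rpl5 and Rpl10 have no value here. On these shared probe sets 31 ribosomal protein genes are named that no member probe set covers.

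All 6 samples came from the Hoxb4i embryonic stem cell line, in which a tet-on cassette switches HOXB4 on when doxycycline is given. The uninduced group received no doxycycline, and the induced group received 2 µg/ml for 48 hours from day 4. Each group holds 3 arrays, from experiments A, B and C, with 1 array of each group in every experiment. Both groups were seeded at 3500 cells/ml, both were harvested on day 6, and whole embryoid bodies were lysed; doxycycline without the cassette is not among the samples. Because mixed tissue was measured, fewer cells of a type and less RNA per cell cannot be told apart.

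Ribosomal proteins coat and shape the ribosomal RNA of the small subunit, which reads the mRNA, and of the large subunit, which joins amino acids. They are made in matched amounts, and their mRNAs are among the most abundant in dividing cells. Most of these mRNAs begin with a run of pyrimidines, the 5′ terminal oligopyrimidine tract (TOP), through which mTORC1 and Larp1 control their translation; transcript levels do not show that control. In people, loss of 1 copy of certain ribosomal protein genes, RPS19 foremost, causes Diamond-Blackfan anaemia, a failure of red cell production.

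Values are MAS5 signals, and differences are in log2 units of the signal plus an offset of 18.8. Of the 106 probe sets, 99, for 48 genes, had a mean signal above the 40th percentile of the array and were tested. The only probe sets of Rps16 and Rpl3l, with mean signals of 1.68 and 39.3, lay below it. Rpl3l, a paralog known from striated muscle, read 49.6, 53.9 and 57.7 on the uninduced arrays and 17.2, 19.3 and 38.3 on the induced arrays of A, B and C. These groups did not overlap, but the levels are near the bottom of the scale and were not tested.

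Ribosomal protein probe sets were among the brightest on every array. Of the 106, 68 had a mean signal of 10000 or more, a level that 573 of all 45037 probe sets reached, and the members carried between 4.81% and 5.99% of the summed signal of an array. Of the 50 genes, 36 had at least 1 such bright probe set. The other 31 tested probe sets were dimmer. Several probe sets, up to 6, stood for 24 of the genes. Of the member IDs, 40 end in _x_at, which marks probes that also match other sequences; ribosomal protein genes have many processed copies in the genome, so these signals may include transcripts of near-identical copies.

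The median signal of the 68 bright probe sets was 23619 in uninduced A and 23997 in induced A. In experiment B it was 32661 uninduced and 28832 induced. In experiment C it was 31100 uninduced and 32288 induced. Both arrays of A were thus lowest, and doxycycline did not order the arrays. The 31 dimmer tested probe sets had a median of 866.9 and 832.2 in uninduced and induced A, above the 516.0 and 581.7 of B and the 715.1 and 593.7 of C.

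**Figure D1:**
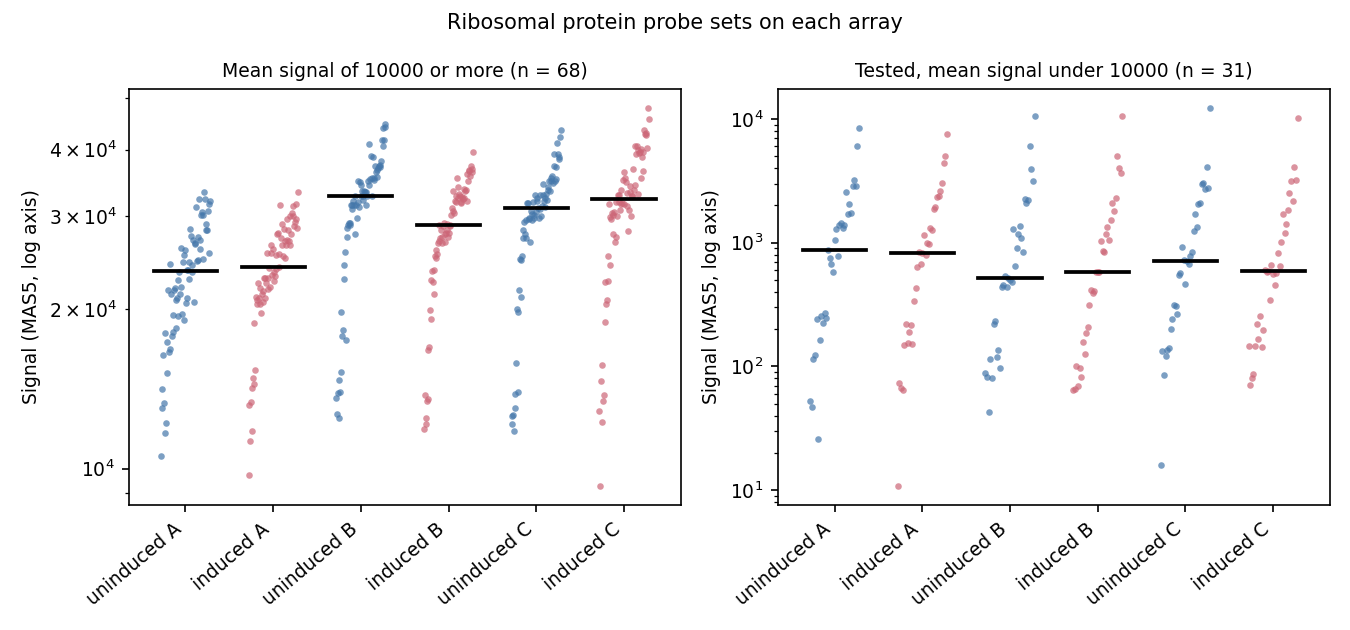
Signal of each tested ribosomal protein probe set on each array (log axis; blue, uninduced; red, induced; points of an array ordered by mean signal; black bars, medians), with the 68 bright probe sets on the left and the 31 dimmer ones on the right. The bright medians of both arrays of experiment A lie at 23619 and 23997 and those of B and C between 28832 and 32661, whereas the dimmer medians are highest in A.

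The main comparison asked which transcripts change when HOXB4 is switched on. No ribosomal protein probe set passed the test (limma, Benjamini-Hochberg adjusted over all 27022 tested probe sets): 0 of 99 were called, as were 0.0% of all tested probe sets. The smallest adjusted p among members was 0.99996, and 0.930 with the experiment letter as a replicate block. At an unadjusted p under 0.05, 0 of 99 members passed without the block, where 0.511% of all tested probe sets did, and 0 of 99 with it, where 3.94% did. The median difference, induced minus uninduced, was -0.017 over the 99 members and 0.0091 over all tested probe sets.

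The estimates of the bright probe sets were tight. Their differences ran from -0.12 to 0.25, and 67 of 68 lay within 0.25 log2 units of 0. The 95% interval of a bright probe set reached a median of 0.418 to either side of its estimate, against 0.771 for the dimmer members and 0.808 for all tested probe sets. These intervals, like the others given for doxycycline, are from the fit without the replicate block. For Rpl38 the interval was -0.40 to 0.32 without the block and -0.24 to 0.16 with it. For Rpl4 it was -0.53 to 0.45 without and -0.24 to 0.17 with it. Changes smaller than the intervals of a fit were not detectable by that fit with 3 arrays a group.

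Within the experiments the bright probe sets moved in different directions. In B the induced array was lower in 61 of 68, with a median difference of -0.14. In A it was lower in 27 of 68, with a median of 0.038, and in C in 13 of 68, with a median of 0.068. Over all 99 members the induced array was lower for 47 (A), 79 (B) and 31 (C), where 53.5%, 48.9% and 48.0% of all tested probe sets were lower. Each of these is 1 array against 1, so none has a test. Other named genes with a mean signal of 10000 or more, 333 probe sets, had medians of 0.048 (A), -0.081 (B) and -0.047 (C). At 20000 or more, the 42 other probe sets had 0.039 (A), -0.15 (B) and -0.052 (C). The 58 members in that range had 0.051 (A), -0.14 (B) and 0.070 (C).

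The same direction in all 3 experiments was found for 13 of 99 members, against 26.0% of all tested probe sets. By the brightest probe set of each gene, 4 of 48 genes were lower on the induced array in 3 of 3 experiments and 0 were higher. These were Rps4l (-0.22, 95% interval -1.12 to 0.68), Rpl12 (-0.22), Rps15 (-0.10) and Rps18 (-0.09). None of the 4 passed the test.

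Separation of the groups was as rare. The 3 induced arrays all lay above the 3 uninduced for 1 member and below for 1, where 2.24% and 2.11% of all tested probe sets did. The first was Rpl22, a large-subunit protein needed for normal T cell development: 1 of its 3 probe sets read 17320, 17803 and 13927 uninduced and 18800, 19913 and 18917 induced in A, B and C, a difference of 0.24 (95% interval -0.10 to 0.58; unadjusted p in limma 0.142, and 0.0513 with the replicate block). Its brightest probe set differed by -0.0029, so the separation was not shared within the gene. The other was the dimmest of 6 Rpl35 probe sets, at 120.8 ± 4.64 (SD, n = 3) uninduced and 73.4 ± 11.6 induced, a difference of -0.61 (95% interval -1.33 to 0.12); the 5 bright Rpl35 probe sets, above 20000 on all arrays, differed by -0.07 to -0.01.

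The stalk and scaffold proteins gave the same picture. Rplp0, the base of the stalk that recruits elongation factors, read 24506 ± 5840 uninduced and 25653 ± 3950 induced (SD, n = 3), a difference of 0.09 (95% interval -0.41 to 0.58). Rplp2, its acidic partner, differed by 0.07 and Rpsa, a small-subunit protein also known as the laminin receptor precursor, by -0.10. Rpl11, which with Rpl5 can bind Mdm2 and stabilise p53, differed by -0.08. Rpl38, which favours the translation of certain Hox mRNAs in mouse embryos, read 37295 ± 5180 uninduced and 36234 ± 4344 induced, a difference of -0.04 (95% interval -0.40 to 0.32). The groups overlapped for each of these genes.

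Rps19 and Rps6 did not pass the test either. Rps19 read 20656, 40906 and 31184 on the uninduced and 28947, 35431 and 32665 on the induced arrays of A, B and C. Its uninduced values enclosed all the induced ones, and the difference was 0.12 (95% interval -0.45 to 0.68). Rps6, the substrate of the S6 kinases, has only dim single-gene probe sets; the tested one read 604.8 ± 107 uninduced and 636.3 ± 49.8 induced. For the check of the induced gene, the 2 Hoxb4 probe sets read 93.3 ± 40.6 and 120 ± 118 uninduced and 140.5 ± 31.0 and 183 ± 68.4 induced, with differences of 0.57 and 0.86 that did not pass the test (adjusted p 0.99996 for both in limma).

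**Figure D2:**
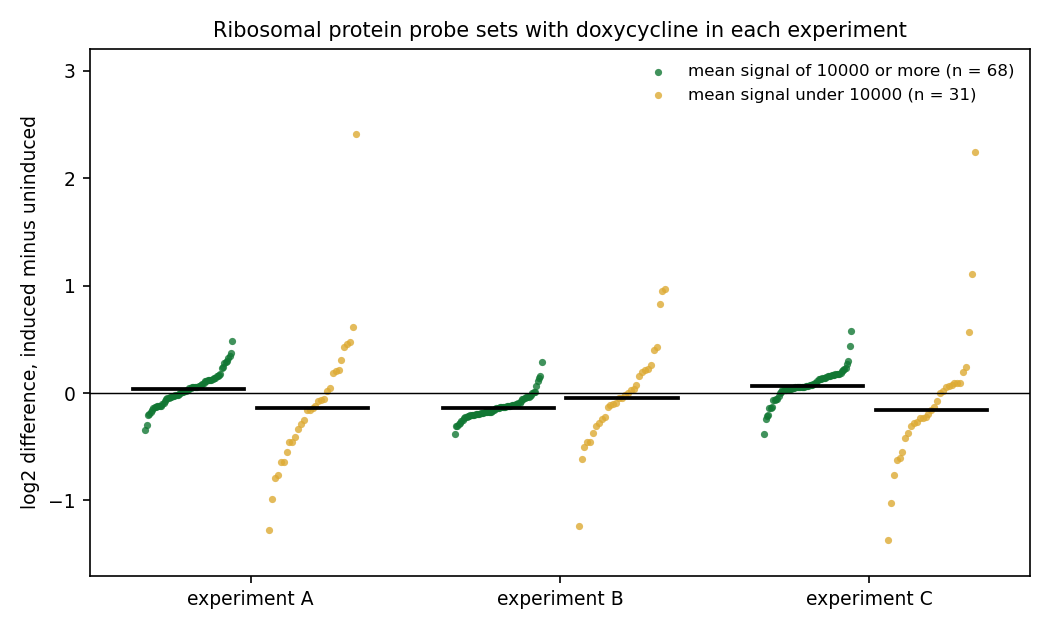
Difference between the induced and the uninduced array of each experiment (log2 units) for the 68 bright (green) and 31 dimmer (yellow) tested ribosomal protein probe sets; each point is 1 probe set and black bars are medians. The bright probe sets form narrow bands with medians of 0.038 (A), -0.14 (B) and 0.068 (C).

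Between the experiments, many bright ribosomal protein probe sets were lower in A. An F test over A, B and C, in which the 2 arrays of an experiment count as replicates, called 33 of 99 members (26 genes), against 14.1% of all tested probe sets, and 29 of the 33 were bright. Between A and B, 17 members were lower in A and 2 higher, against 2.71% and 2.62% of all tested probe sets. Between C and A, 29 were higher in C and 2 lower, against 3.36% and 5.3%. Both comparisons use the arrays of A, so they are not separate evidence.

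These calls are those of the intensity-trended limma fit: without the trend, 0 of 99 members were called in the F test, in A minus B and in C minus A. Single arrays moved the counts too. The F test called 1 of 99 without induced C, 7 without uninduced C, 8 without uninduced B, 13 without induced B and 52 without induced A. A minus B called 0 without either array of B or without uninduced C, 1 without induced C, 4 without uninduced A and 45 without induced A. C minus A called 0 without induced C, 1 without uninduced C, 16 without either array of B, 18 without uninduced A and 49 without induced A. The 2 arrays of an experiment also differ in doxycycline, and with doxycycline as a term the F test called 21. The shares of all tested probe sets called under these settings are not given here. These counts therefore show how the calls depend on the fit, and not how members stand beside other genes.

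The direction was shared widely among bright probe sets. Both arrays of A lay below all 4 arrays of B and C for 60 of 99 members, 59 of them bright, where 10.8% of all tested probe sets did. The median difference of the bright members was -0.35 for A minus B and 0.40 for C minus A, and 0.044 for C minus B. Large-subunit and small-subunit bright probe sets had the same median, -0.36, for A minus B. Among the dimmer members 9 of 31 lay above in both arrays of A and 1 of 31 below; over all 99 members 11 lay above, where 15.5% of all tested probe sets did.

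Small-subunit examples were Rps10, Rps14, Rps3, Rps4x and Rps19. The Rps10 probe set with the smallest adjusted p read 19419 and 21033 (A), 31958 and 28236 (B), and 29609 and 31912 (C) (uninduced, then induced). A minus B was -0.57 (95% interval -0.82 to -0.32; adjusted p in limma 0.0218) and C minus A 0.60 (adjusted p 0.0145). Both arrays of A were lower than all others, with C and B overlapping. It was the only one of 6 Rps10 probe sets called in A minus B: 3 further bright ones were at -0.34 to -0.20 and the last bright one at 0.27 (adjusted p 0.0908 to 0.381). Rps19, the first gene linked to Diamond-Blackfan anaemia, had the lowest A minus B of the bright members, -0.64 (adjusted p 0.0467). Its arrays of A read 20656 uninduced and 28947 induced. Rps19 did not pass the F test (adjusted p in limma 0.0512) or C minus A (0.38, adjusted p 0.142). Rps14, whose loss is tied to the anaemia of the 5q- syndrome, was at -0.49 and -0.59 on its 2 probe sets (adjusted p 0.0309 and 0.0227).

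Large-subunit examples were Rpl41, Rpl7, Rpl8, Rpl4 and Rpl19. Rpl41, the smallest ribosomal protein, read 25516 and 28490 (A), 44051 and 36240 (B), and 42192 and 47947 (C) on its brightest probe set. A minus B was -0.57 (adjusted p in limma 0.034) and C minus A 0.74 (adjusted p 0.011). The arrays of A did not overlap with the others. Rpl7 and Rpl8 were lower in A on their brightest probe sets, with A minus B at -0.59 and -0.56 (adjusted p 0.0359 and 0.0485). The other bright Rpl7 probe sets, at -0.40 and 0.045, did not pass (adjusted p in limma 0.0818 and 0.876). For Rplp0, A minus B was -0.44 and did not pass (adjusted p 0.0817).

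The shift followed brightness, and other bright probe sets shared it. For A minus B, the 58 members of 20000 or more had a median of -0.36 and the 42 other named probe sets in that range -0.35. Those 42 include Fau, Eef1a1, Tpt1 and Naca, which are taken up with the TOP mRNAs below. Whether bright genes apart from ribosomal proteins and TOP mRNAs shifted as much was not tested. Members from 10000 to under 20000, 10 probe sets, had -0.14 and the 291 others -0.23. From 1000 to under 10000 the medians were 0.062 and -0.0078, and below 1000 they were 0.42 and 0.11. The 99.9th percentile of the signal was 26630 and 27015 on the arrays of A and 33098 to 37854 on the other 4. Bright members lie in that range themselves, so this percentile is not separate from them. The 99th percentile was 10854 and 11257 on the arrays of A and 11881 to 13146 on the other 4.

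Quantile normalization gives every array the same distribution and so removes a shift that the brightest probe sets share. After it the median of the bright members was -0.0021 for A minus B and 0.00084 for C minus A. The F test then called 5 of 99 members, with 12.4% of all tested probe sets. These were Rps4l, Rpl12, Rpl37, Rps25 and 1 probe set of Rpl27. By pairs of experiments, A minus B called 2 members higher and 1 lower (1.85% and 2.11% of all tested probe sets), C minus A 1 and 1 (2.73% and 4.57%), and C minus B 0 and 2 (4.53% and 5.96%). Whether the lower top of the scale in A is in the RNA or in the measurement was not tested. The Actb control probes, whose 3′ signal over 5′ signal reads RNA integrity, gave a ratio of 2.88 in uninduced A. It was 1.26 to 1.48 on the other 5 arrays, with 1.47 in induced A. The Gapdh ratio was 1.08 in uninduced A and 0.834 to 0.903 on the other 5, with 0.834 in induced A. The part of RNA integrity in the shift was not tested. Lineage markers differed between A and B as well: 5 of 6 tested erythroid, 4 of 6 endothelial, 6 of 6 mesenchyme, 1 of 6 cardiac and 1 of 6 blood progenitor markers were lower in A. Of the neural markers 3 of 6 were higher in A, of the endoderm markers 2 of 6 were higher and 2 of 6 lower, and of the pluripotency markers 0 of 6 were called. Their part in the shift was not tested.

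**Figure D3:**
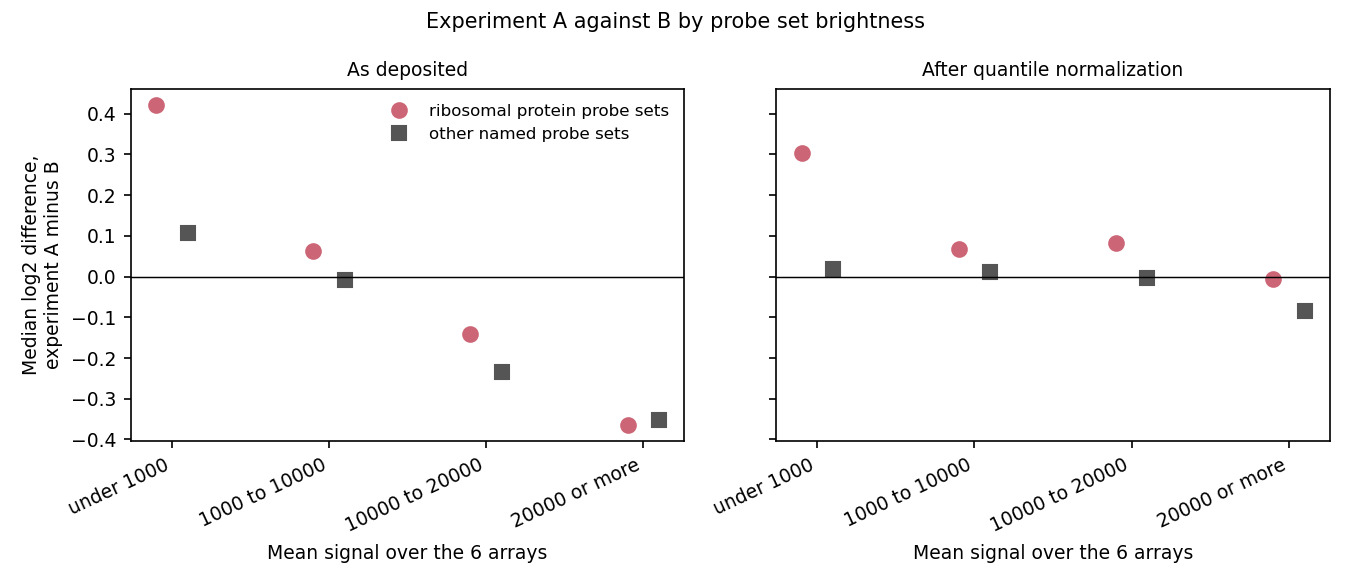
Median difference between experiments A and B (log2 units) of ribosomal protein probe sets (red circles) and other named tested probe sets (grey squares) in 4 ranges of mean signal, as deposited on the left and after quantile normalization on the right. As deposited, both kinds go from above 0 in the dimmest range to -0.36 and -0.35 in the brightest; after quantile normalization the brightest medians are -0.0075 and -0.084.

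Because members that moved together can be set beside their start sites, the bases around the annotated starts were read from RefSeq promoters (GRCm38.p6), which hold 44 of the 50 genes in 52 windows. A C followed by TTT or TCT on the sense strand, the letters CTTT or CTCT, occurred from 10 bases before to 10 bases after the start in 20 of 52 member windows (38.5%) and in 16.6% of the 32851 windows of the table. On the other strand the shares were 9.62% and 17.3%. The windows below run from 15 bases before the start to 15 bases from it on, with the matches within those 10 bases on either side in capitals. The first 6 show the motif in genes of both subunits, and the last 2 are small-subunit genes, called lower in A than in B, that lack it.
Rps6: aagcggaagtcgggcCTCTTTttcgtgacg
Rps10: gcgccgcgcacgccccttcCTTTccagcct
Rps18: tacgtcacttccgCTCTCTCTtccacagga
Rpl35: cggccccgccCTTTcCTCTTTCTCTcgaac
Rpl38: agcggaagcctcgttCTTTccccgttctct
Rplp2: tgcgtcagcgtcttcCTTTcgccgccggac
Rps4x: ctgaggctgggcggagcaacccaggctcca
Rps3: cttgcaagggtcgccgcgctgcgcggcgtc

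In GRCm38.p6 these lie at chr4:86857353-86857382 (minus strand, Rps6), chr17:27635230-27635259 (minus, Rps10), chr17:33955651-33955680 (minus, Rps18), chr2:39005117-39005146 (minus, Rpl35), chr11:114668565-114668594 (plus, Rpl38), chr7:141447636-141447665 (plus, Rplp2), chrX:102189377-102189406 (minus, Rps4x) and chr7:99483695-99483724 (minus, Rps3). Each spans the annotated first base of its gene. In Rps6, Rpl38 and Rplp2 the capitals begin at the annotated start itself. A match is a description of letters and not a mapped start of transcription, and its absence says only that these letters are not in the window. Bright genes with the motif (11) had a median of -0.34 for A minus B and those without (20) of -0.39; for doxycycline the medians were -0.015 and -0.011.

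Experiments B and C differed in lineage markers, and few ribosomal protein probe sets were called between them. Of 99 members, 0 were higher in C than in B and 2 were lower, against 4.87% and 5.81% of all tested probe sets. Among the 68 bright members C minus B ran from -0.32 to 0.42, the smallest adjusted p was 0.191, and the median half-width of the 95% interval was 0.246. The summed signal of erythroid markers was 36782 and 26217 in B and 476.3 to 3021 on the other 4 arrays, and 5 of 6 tested were lower in C. That of neural markers was 4021 and 3223 in C against 452.6 and 234.6 in B, and 5 of 6 were higher in C. Mesenchyme (5 of 6), endothelial (5 of 6), endoderm (4 of 6), cardiac (3 of 6) and blood progenitor (1 of 6) markers were lower in C and 3 of 6 pluripotency markers higher; the part of this makeup in the differences below was not tested.

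Rps4l, a paralog of Rps4x, was the member with the smallest adjusted p between experiments. Its probe set read 3188 and 3029 (A), 6042 and 4988 (B), and 2694 and 2168 (C) (uninduced, then induced). Both arrays of B were above all others, and both of C below. C minus B was -1.18 (95% interval -1.58 to -0.78; adjusted p in limma 0.00279) and A minus B -0.82 (adjusted p 0.0333), while C minus A was -0.36 and did not pass (adjusted p 0.215). After quantile normalization C minus B was -1.13 (adjusted p 0.00377) and A minus B -0.77 (adjusted p 0.0449). Without uninduced B, C minus B was -1.04 and no longer passed (adjusted p 0.0641).

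Rps4x itself did not follow Rps4l. It read 23489 and 25423 (A), 32672 and 32014 (B), and 34451 and 33226 (C). It was low in A, as were most bright members, and C minus B was 0.07 (95% interval -0.15 to 0.28; adjusted p in limma 0.738). The difference between the paralogs was not tested, since each is measured by its own probes.

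The other call in C minus B was 1 of 3 tested Rps9 probe sets, at 774.2 and 801.8 (A), 1291 and 1039 (B), and 670.4 and 568.5 (C). The difference was -0.89 (95% interval -1.38 to -0.40; adjusted p in limma 0.0308), and -0.89 after quantile normalization. It did not pass without the intensity trend (adjusted p 0.0679) or without any 1 array of B or C (adjusted p 0.0948 to 0.299). The bright Rps9 probe set, at 16626 to 24868, differed by -0.013 and the third by 0.37, so the probe sets of Rps9 did not move together.

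Without either array of A, which leaves the C minus B estimates as they are but changes their error, 5 of 99 members passed. Besides Rps4l and Rps9 these were 2 of the 3 Rpl7l1 probe sets and the dimmest of Rps10, all higher in C. The share of all tested probe sets that passed under these settings is not given here. The added calls therefore show how the calls depend on the fit, and not how these genes stand beside others. Rpl7l1 is a paralog of Rpl7 that acts in ribosome assembly. Its brightest probe set read 2859 and 2632 (A), 2231 and 2285 (B), and 3037 and 3164 (C). C minus B was 0.45 (95% interval 0.10 to 0.81; adjusted p in limma 0.109 with all 6 arrays and 0.0283 without uninduced A).

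By the brightest tested probe set of each of the 48 genes, C minus B was highest for Rpl39 (0.70), Rpl7l1 (0.45), Rpl27a (0.41), Rpl39l (0.33) and Rpl14 (0.33), and none of these passed the test. It was lowest for Rps4l, followed by Rps19 (-0.25), Rpl37 (-0.19), Rps7 (-0.18) and Rps14 (-0.13), of which only Rps4l passed. Apart from Rps19, Rps7 and Rps14 these are dimmer probe sets, whose intervals are wider. Uninduced A alone, set against the mean of the other 5 arrays without a test, was highest for Rpl12 (0.99), Rps25 (0.99), Rpl37 (0.80), Rpl39 (0.53) and Rpl27a (0.30) and lowest for Rps19 (-0.70), Rpl7 (-0.68), Rpl41 (-0.62), Rpl39l (-0.62) and Rpl8 (-0.59).

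The remaining paralogs gave no call. Rpl22l1, which can take the place of Rpl22, read 14261 ± 2238 uninduced and 15119 ± 1517 induced (SD, n = 3). Rps27l, known as a p53 target, read 13954 ± 706 and 13632 ± 1945 on its brightest probe set. Rpl39l, best known from testis, was close to the floor at 87.3 ± 43.1 and 69.9 ± 3.45. Rpl39 and Rps27, their partners, have only dim single-gene probe sets here, at 97.8 to 307.5 and 247.6 to 598.5.

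A few dimmer probe sets were higher in A. The Rpl12 probe set read 2555 and 1855 (A), 1082 and 1050 (B), and 1330 and 1193 (C); A minus B was 1.02 (95% interval 0.55 to 1.49; adjusted p in limma 0.0285, and 0.0405 after quantile normalization). Rps25 read 1286 and 1148 (A), 482.9 and 581.8 (B), and 715.1 and 458.3 (C), with A minus B at 1.17 (adjusted p 0.0359, and 0.0555 after quantile normalization). Rpl37 read 6083 and 4972 (A), 3179 and 3639 (B), and 2777 and 3191 (C), with C minus A at -0.88 (adjusted p 0.0188, and 0.0204 after quantile normalization). For these 3 probe sets both arrays of A were above the other 4, opposite to the bright members. Each is the only tested single-gene probe set of its gene, so no bright value of the same gene stands beside it.

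**Figure D4:**
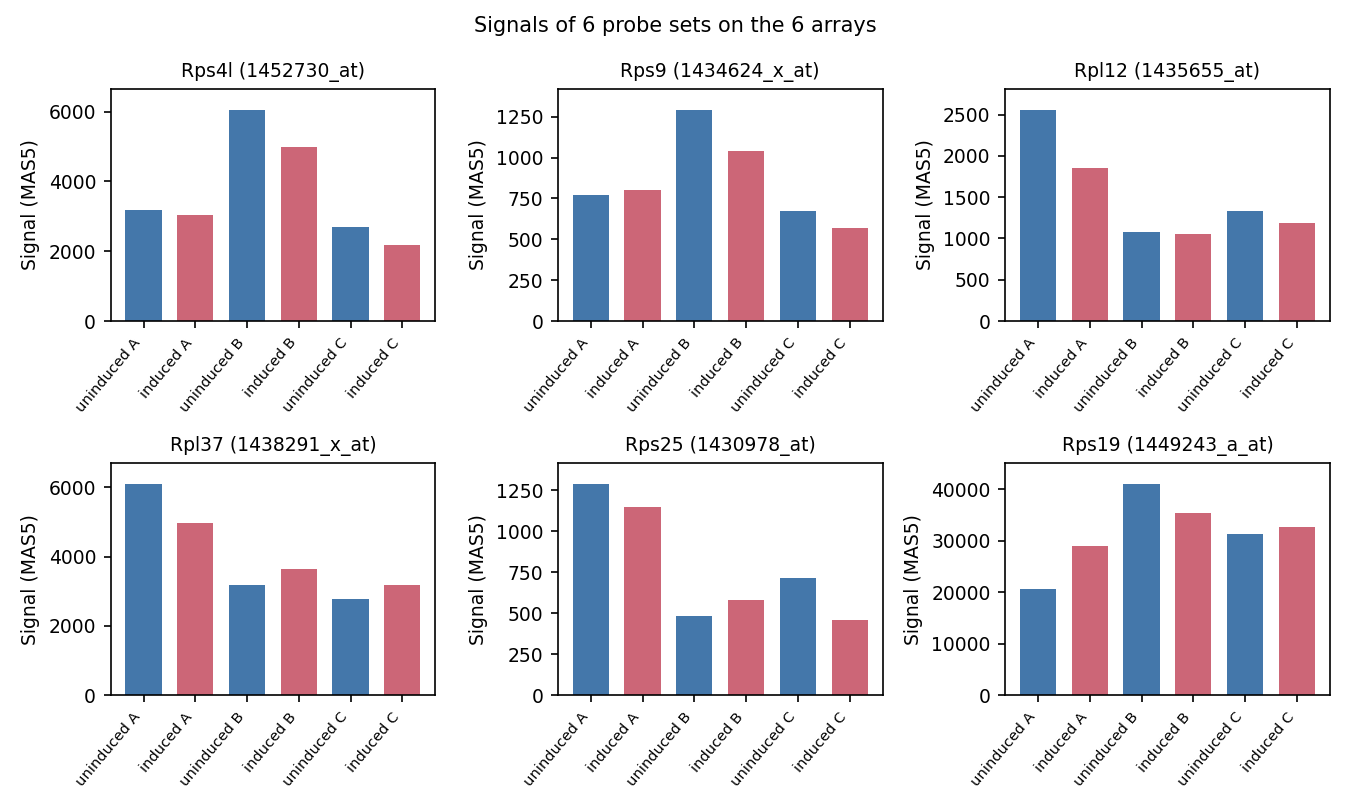
Signals (linear axes from 0; blue, uninduced; red, induced) of 6 probe sets on the 6 arrays. Rps4l and the dim Rps9 probe set are highest in experiment B, Rpl12, Rpl37 and Rps25 are highest in experiment A, and Rps19 is lowest in uninduced A at 20656.

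Probe sets of 1 gene could disagree. For A minus B, the 4 tested Rpl41 probe sets split by brightness, with the 2 bright ones at -0.57 and -0.46 and the 2 dim ones at 0.64 and 0.78. The 6 of Rps10 ran from -0.57 on a bright probe set to 0.75 on the dim one. In Rps18 the dim probe sets disagreed among themselves, from -0.58 to 0.95, while the 3 bright ones lay between -0.52 and -0.14. Rps24 (-1.03 to 0.42), Rpl37a (-0.48 to 0.67) and Rps9 (-0.54 to 0.47) also spread over more than 1 log2 unit. Probe sets of a gene can match different ends or copies of its transcript, and which of them reads the mature mRNA was not tested.

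Some genes that build ribosomes were higher in C than in B. Of 56 ribosome biogenesis genes, 8 were higher in C than in B and 0 lower (against 4.87% and 5.81% of all tested probe sets), with a median of 0.30, against 0.055 for the ribosomal proteins and 0.069 for all tested probe sets. They included Dkc1 (1.16), the pseudouridine synthase of box H/ACA particles, Nop2 (0.88), an rRNA methyltransferase, Nop56 (0.62), a core protein of box C/D particles, and Ddx21 (0.69), a nucleolar helicase. After quantile normalization 7 were higher and the median was 0.33. Between A and B, 5 were higher in A and 0 lower (against 2.62% and 2.71% of all tested probe sets), with a median of 0.28. The bright ribosomal proteins had -0.35 there and the dimmer ones 0.28; for C minus B the dimmer ones had 0.24. Most biogenesis genes lay below the bright level too, and after quantile normalization 4 were higher, with a median of 0.26. The difference between the lists was not tested.

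Some translation factors and other TOP mRNAs were lower in A than in B, as bright ribosomal proteins were. Of 20 tested, 5 were lower in A than in B (Eef1a1 -0.51, Tpt1 -0.53, Fau -0.65, Naca -0.47 and Btf3 -0.63) and 0 were higher, against 2.71% and 2.62% of all tested probe sets, and the median was -0.27. Fau encodes a ribosomal protein of the small subunit that its symbol hides. After quantile normalization 0 of 20 were lower, with a median of -0.077. Between C and B only Eif4a2 of the 20 was called, lower in C (-0.56), where 5.81% of all tested probe sets were lower.

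Of 21 tested genes of the mTOR, S6 kinase and Myc list, 1 was higher in C than in B and 1 lower. They were Mycn (1.18) and Eif4ebp1, an mTORC1 substrate (-0.71). Over all tested probe sets 4.87% were higher and 5.81% lower, so both counts were near the share over the array. Rps6ka6 alone was lower in A than in B (-1.16), where 2.71% of all tested probe sets were. Of 76 mitochondrial ribosomal protein genes, 0 were called in C minus B or A minus B. In C minus A 1 was called, higher, where 3.36% of all tested probe sets were. The medians were 0.11 (C minus B), -0.12 (A minus B) and 0.25 (C minus A). With doxycycline, 0 genes of these 4 lists were called, and the medians were -0.0042 for ribosome biogenesis, 0.010 for translation factors, 0.11 for the mTOR list and 0.00054 for mitochondrial ribosomal proteins.

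**Figure D5:**
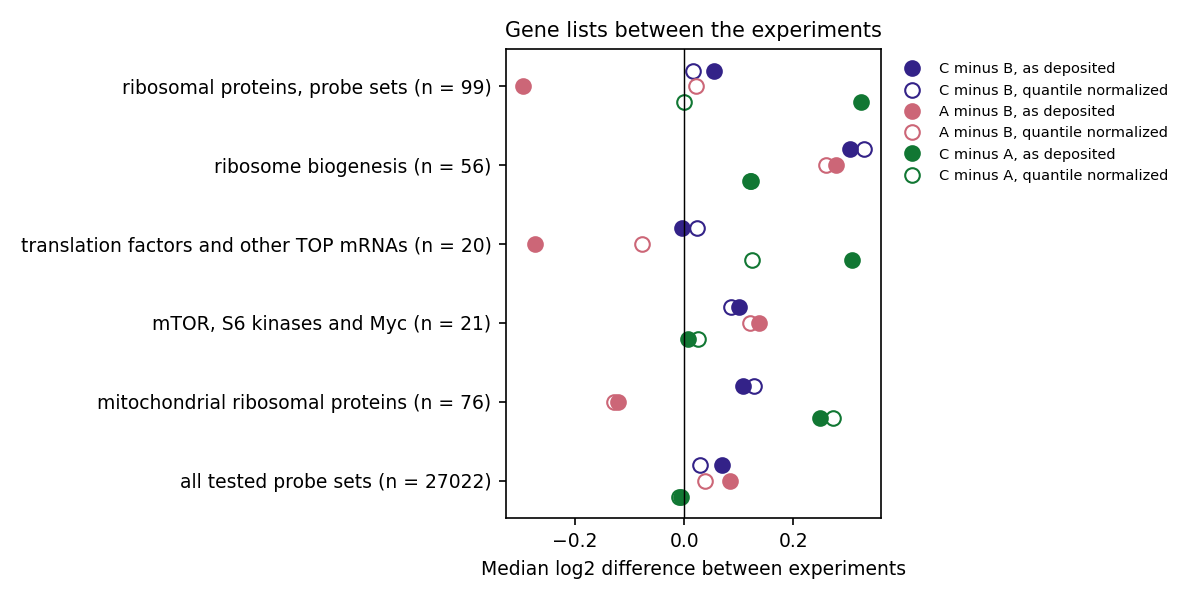
Median log2 differences between experiments for the ribosomal protein probe sets, 4 lists of related genes and all tested probe sets (filled, as deposited; open, after quantile normalization; n, tested members). The ribosome biogenesis medians for C minus B and A minus B stay between 0.26 and 0.33 under both scalings, whereas the ribosomal protein median for A minus B goes from -0.30 to 0.021.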

How the data were processed

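Total RNA, 4.3 µg per sample, was labelled in 1 cycle and hybridized to Affymetrix Mouse Genome 430 2.0 arrays, per the labels' protocols. The authors deposited 1 linear intensity per probe set and array, credited to MAS5 in the submitters' processing notes; its version is not given in the sources used here. Each array had a mean of 500 once 2% was trimmed from both ends, so the deposited intensities were already scaled. After 64 control probe sets were left out, log2(signal + 18.8) was computed (18.8 is the 20th percentile of all values), and probe sets with a mean below the 40th percentile, a signal of 60.46, were not tested. Symbols came from GEO's platform annotation, updated through Entrez IDs and RefSeq (GRCm38.p6).

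Groups and experiments were tested in limma 3.58.1 under R 4.3.3 (intensity trend, Benjamini-Hochberg over 27022 probe sets, threshold 0.05, two-sided); the script was tested on simulated data. Arrays with the same letter come from the same experiment per the labels, and deviations from the group means correlated at 0.445 (A), 0.671 (B) and 0.66 (C) between same-letter arrays, so the letters pair the arrays. The number of arrays limits the precision, and the spread between them is that of the 3 experiments.

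Named genes were those with the same direction in 3 of 3 experiments. They were also the 5 largest and 5 smallest for C minus B and for uninduced A against the rest. Fixed genes of known role were added. So were genes whose probe sets differ by over 1 log2 unit in C minus B or with doxycycline. Genes whose probe sets disagree in A minus B were named outside this rule. Further genes named beside a count were chosen after their values were seen. The members and lists were chosen with earlier results of these data known. Alternatives were the offset, the filter, quantile normalization, the trend, doxycycline or experiment as a term, probe set choice and leaving out each array.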

Additional observations from a re-analysis of the deposited data

How the results depend on the processing

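With 3 arrays a group and 2 an experiment, precision is the limit, and signals near the floor carry little information. The doxycycline count of members called was 0 under every alternative run, with the replicate block included, where the median was -0.017 (also 0 with the block and quantile normalization together, added after seeing the data). The doxycycline median was -0.13 without uninduced A and between that and 0.058 over all arrays left out. The experiment counts were less stable. With 1 array left out, the lone array of its experiment is assumed to vary like the others. Apart from quantile normalization, the counts below have no share of all tested probe sets beside them. They show only how the calls depend on the fit. The F test (33 members) called 8 with no filter, 5 with quantile normalization, 0 without the trend, 21 with doxycycline as a term, 5 over IDs ending in plain _at, and 1 to 52 with 1 array left out. A minus B (19) called 1, 3, 0, 6 and 4 in that order and 0 to 45 with 1 array left out; C minus A (31) called 4, 2, 0, 20 and 3, and 0 to 49. C minus B (2) called 1 with 1 probe set per gene, 1 without the trend, 1 over plain _at, 0 among bright members (added after seeing the data) and 0 to 5 with 1 array left out. The A minus B median of -0.30 became 0.021 with quantile normalization and 0.0068 over plain _at; the C minus A median of 0.32 became -0.0010 and 0.16. Quantile normalization equalises the arrays' distributions, and most plain _at members are dim. Otherwise the cause was not tested. The values of named genes counted next come from 51 doxycycline and C minus B results, of which 1 was called in the first fit. Calls of named genes in A minus B and C minus A, and that of the dim Rps9 probe set, are not among them. Of 824 values of named genes under alternatives, 1 lost its call (Rps4l), 2 gained one (Rpl7l1 without either array of A), and 88 that were called in neither fit turned sign.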
